A study of Mus musculus with 32 samples.

Results

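Late 2-cell mouse embryos that had been treated with A-485 were compared with DMSO-treated early 2-cell embryos by total RNA-seq, to ask in which genes the treated embryos matched the earlier stage and in which they differed from it. The comparison used 2 libraries of late 2-cell A-485 embryos and 2 libraries of early 2-cell DMSO embryos, chosen by their labels, which are 4 of the 16 RNA libraries and 4 of the 32 samples in the series. All embryos were wild type, from in vitro fertilization of B6D2F1/J oocytes with B6D2F1/J sperm taken from mice of 6 to 8 weeks, and were cultured in KSOM, a culture medium for preimplantation embryos. A-485 was given at 10 µM from 4 to 20 h post in vitro fertilization (hpi) and then washed out, so the late 2-cell embryos had been in medium free of the inhibitor before collection. The DMSO groups received the solvent. The 2 late 2-cell DMSO libraries of the same experiment served as a second reference, and the 2 zygote DMSO and 2 early 2-cell A-485 libraries as further levels to read against. Each library was made from a pool of embryos, so fewer embryos or cells of a kind and less RNA per cell cannot be told apart. The labels do not say whether the 2 libraries of a group came from separate fertilizations, so the p-values measure the spread between these libraries only.

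A-485 inhibits the catalytic activity of CBP and p300, the paralogous acetyltransferases that deposit acetylation on lysine 27 of histone H3, a mark of active promoters and enhancers. After fertilization the mouse embryo starts from RNA stored in the oocyte. A minor wave of zygotic genome activation (ZGA) begins in the zygote and early 2-cell embryo, a major wave follows in the late 2-cell embryo, and maternal RNA is cleared over the same period. Early 2-cell embryos are known for a burst of 2-cell genes such as the *Zscan4* cluster, and late 2-cell embryos for the onset of ribosome biogenesis and protein synthesis genes.

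The late 2-cell A-485 libraries held 13206163 and 14922961 expected counts, against 21496069 and 21900799 for early 2-cell DMSO and 23067712 and 19215326 for late 2-cell DMSO. More genes reached 1 FPKM (fragments per kilobase, relative to library size) in the late A-485 libraries, 14944 and 14921, than in the early DMSO libraries, 12233 and 12457, although the latter were deeper. Protein genes of the mitochondrial genome took 5.43% and 5.35% of the counts in late A-485, 2.49% and 2.27% in early DMSO and 2.44% and 2.35% in late DMSO. The 20 most abundant genes took 32.1% and 32.6%, against 20.6% and 20.4% in early DMSO. The late A-485 replicates correlated less with each other (r = 0.924 on log2(FPKM + 0.1), across genes) than the early DMSO replicates (r = 0.963). Titles of the late and the early 2-cell libraries are written in different styles, so they may come from separate sets of experiments, and that difference cannot be told apart from the comparison. As a gauge of such a difference, late DMSO of the A-485 experiment against late DMSO of the TSA experiment gave 28 genes higher (0.136% of 20647 tested) and 245 lower (1.19%).

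Of 22807 genes tested between late A-485 and early DMSO embryos, 2111 were higher in the treated late embryos (9.26%) and 1940 were lower (8.51%). A call here means an adjusted p under 0.05 in edgeR's quasi-likelihood test, a change of at least 2-fold and a mean of at least 1 FPKM in either group. A further 5086 genes (22.3%) matched the early stage, meaning that the 90% confidence interval of their change lay within 2-fold in both directions. Another 6578 genes reached 1 FPKM but met neither criterion and are left undecided. Only the 15715 genes at 1 FPKM or more could be called or matched. Shares over all genes tested are therefore a low yardstick for lists of expressed genes. The median log2 fold change of all genes tested was 0.19. When the libraries were scaled on the mitochondrially encoded genes in place of all genes, the median of the expressed genes shifted by -1.05 on the log2 scale, and 1079 genes were called higher and 7339 lower. The directions below are therefore relative to the bulk of the transcriptome, with the share of mitochondrial RNA moving beside them. A scaling on total counts shifted that median by 0.13.

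Against late DMSO embryos of their own stage, the same treated libraries had 2406 genes higher (10.5% of 22822 tested), 3824 lower (16.8%) and 3528 within 2-fold (15.5%). In the controls, late DMSO against early DMSO gave 3238 genes higher (15.9% of 20326 tested) and 1813 lower (8.92%). The comparisons share libraries, so they were read side by side, gene by gene. In this way 1381 genes stood at the early level, matching early DMSO and called different from late DMSO. Another 492 stood at the late level, called against early DMSO and matching late DMSO. A larger number lay outside both stages, with 1441 genes above and 1106 below each of them, and 85 genes lay between the stages. Both references were matched by 2550 genes, which do not tell the stages apart. These classes are defined by the same fits, so the order of their levels follows from the definition and only the size of each class and what its genes share are described.

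**Figure D1:**
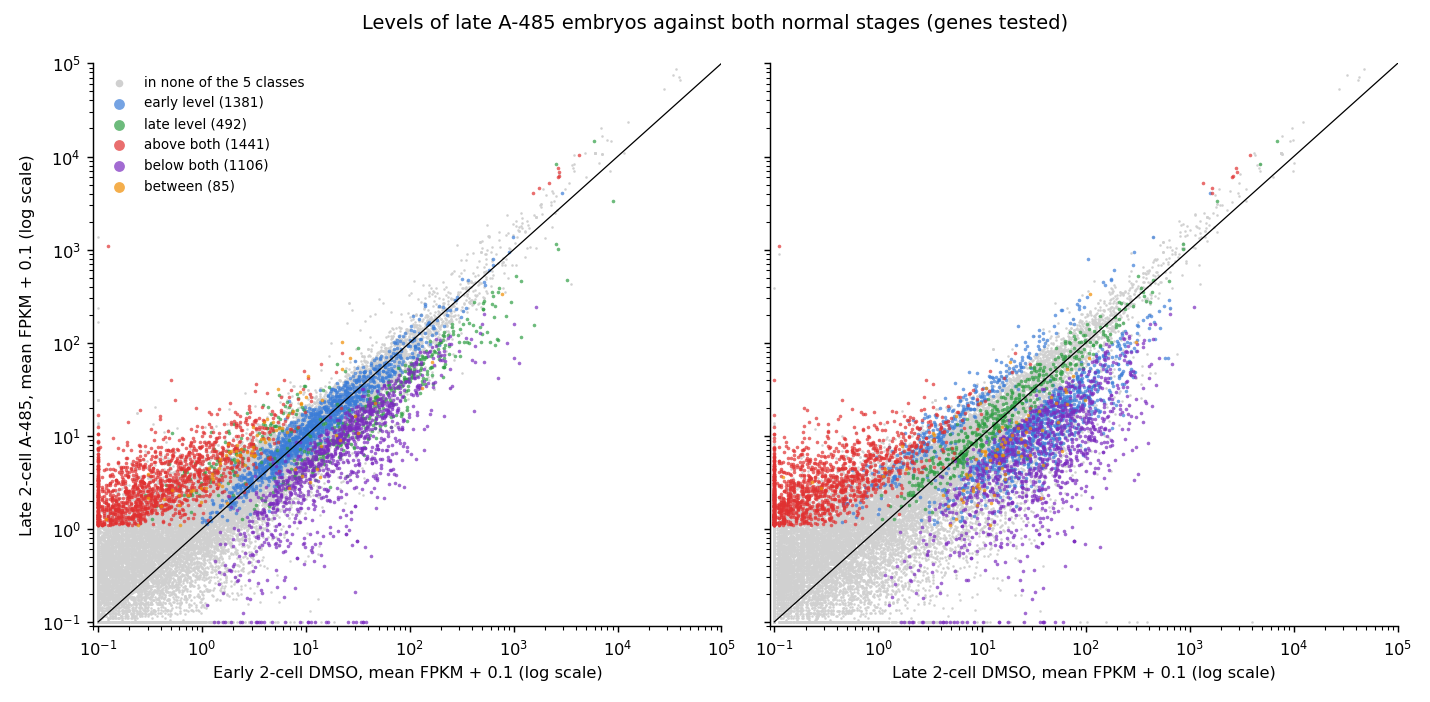
Mean FPKM + 0.1 of each gene tested in late 2-cell A-485 embryos (y axis) against early 2-cell DMSO (left) and late 2-cell DMSO embryos (right), on log axes with the line of equal levels, 2 libraries per group and each point a gene coloured by its class. The 1381 genes at the early level lie along the line on the left and off it on the right, the 1441 genes above both lie over the line in each panel, and the 1106 below both lie under it.

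**Figure D2:**
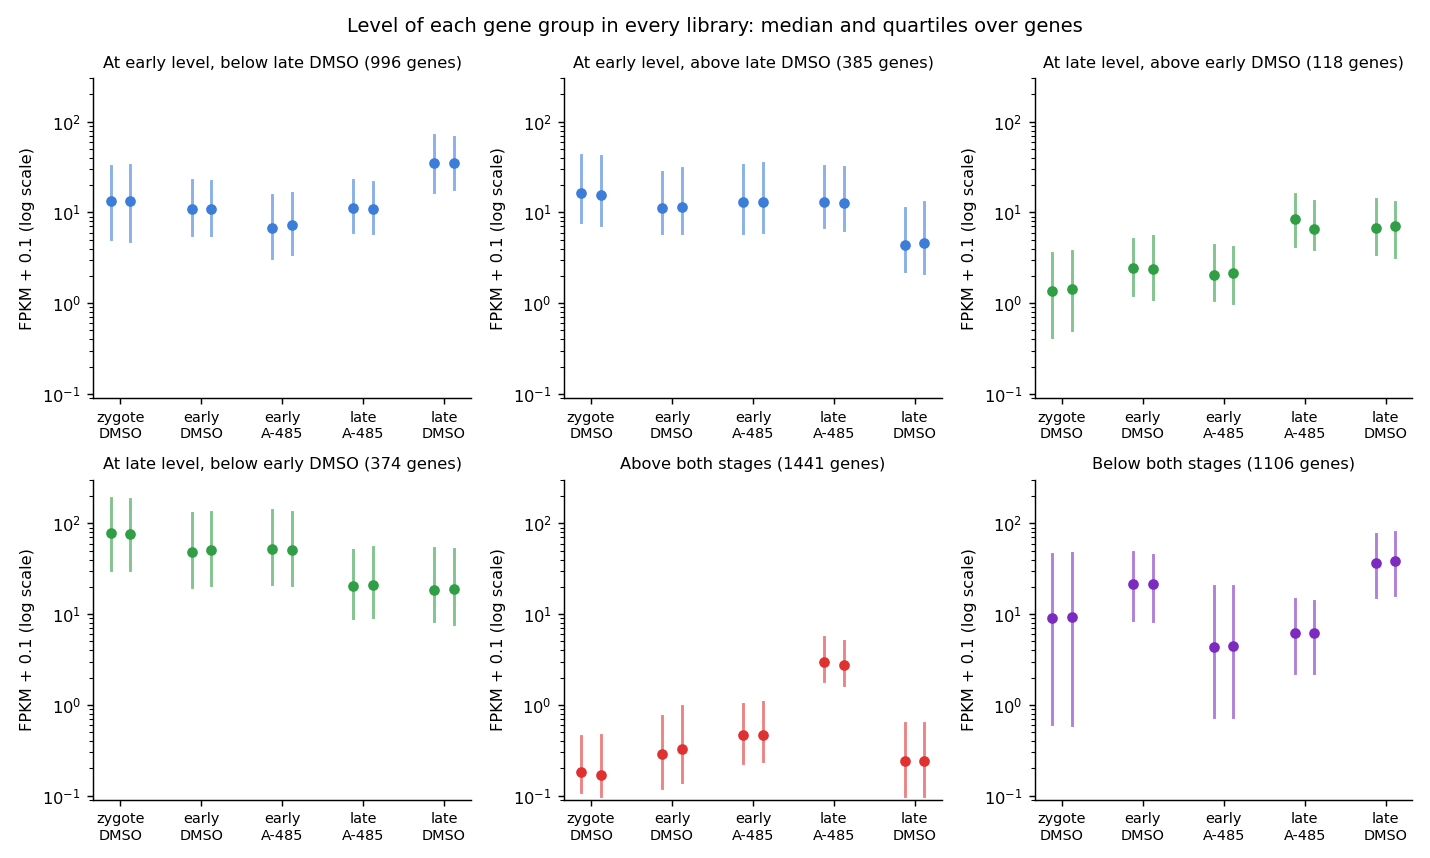
Median FPKM + 0.1 of the genes of each class (log axis, points) with quartiles over genes (bars), for each of the 2 libraries of zygote DMSO, early 2-cell DMSO, early 2-cell A-485, late 2-cell A-485 and late 2-cell DMSO embryos. The genes at the early level and lower than late DMSO have medians of 11.2 and 10.9 FPKM in late A-485 and 34.9 in both late DMSO libraries, and the genes below both have 6.16 and 6.03 FPKM in late A-485.

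At the early level, 996 genes had not risen to the late DMSO level. Their median was 10.9 and 10.7 FPKM in the early DMSO libraries, 11.2 and 10.9 in late A-485 and 34.9 in each late DMSO library, while early A-485 stood at 6.72 and 7.08. Nearly all were protein coding, 975 of 996. Among the largest were genes of nuclear transport, purine synthesis and translation initiation. *Tnpo3*, a nuclear import receptor for splicing factors, had 8.39 and 6.08 FPKM in early DMSO, 5.78 and 6.54 in late A-485 and 87.7 and 100.8 in late DMSO. The treated and early groups overlapped and late DMSO lay far above both. Its log2 fold change was -0.34 ± 0.25 (SE) against early DMSO and -4.27 ± 0.13 against late DMSO (adjusted p = 4.0e-09, edgeR).

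*Adsl*, an enzyme of purine synthesis, had 3.67 and 2.86 FPKM in early DMSO, 6.22 and 2.56 in late A-485 and 53.9 and 46.8 in late DMSO. Its groups overlapped at the early level, with a log2 change of -0.03 ± 0.41 against early DMSO and -4.07 ± 0.21 against late DMSO. The protein phosphatase gene *Ppm1g* stood at 9.67 and 9.99 FPKM in early DMSO, 8.79 and 9.95 in late A-485 and 106.7 and 108.8 in late DMSO. For *Eif3c*, a subunit of translation initiation factor eIF3, the values were 21.4 and 14.1, then 23.9 and 19.0, then 214.4 and 171.7 FPKM. *Jmy*, a cofactor of p300 in p53 responses and a nucleator of actin, stood at 3.92 and 2.20, then 2.45 and 2.59, then 34.1 and 34.2 FPKM. In all of these the treated libraries overlapped early DMSO and lay far under late DMSO. The early A-485 libraries were lower than late A-485, so these genes were not constant in treated embryos. They had 1.0 and 3.57 FPKM for *Tnpo3*, 2.03 and 0.63 for *Adsl* and 2.43 and 3.54 for *Ppm1g*. *Eif3c* had 3.78 and 4.71 FPKM there, and *Jmy* 1.39 and 1.02.

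The gene that encodes p300 itself, *Ep300*, behaved in this way as well. It had 51.4 and 41.6 FPKM in early DMSO, 42.2 and 43.0 in late A-485 and 115.9 and 124.1 in late DMSO, a log2 change of -0.39 ± 0.08 against early DMSO and -1.92 ± 0.09 against late DMSO. *Crebbp*, which encodes CBP, matched both stages with 298.2 and 315.1, 345.5 and 354.0, and 231.9 and 195.9 FPKM. Transcription factors of the preimplantation embryo were also found here. *Klf4* had 28.9 and 29.5 FPKM in early DMSO, 30.9 and 29.3 in late A-485 and 73.8 and 61.0 in late DMSO. *Klf5* had 11.8 and 13.6, then 14.3 and 15.2, then 30.8 and 36.9 FPKM, and *Tfap2c*, a trophectoderm regulator, 13.6 and 12.9, then 12.5 and 12.4, then 26.6 and 24.8. Early A-485 lay under late A-485 in these genes as well. It had 31.5 and 32.2 FPKM for *Ep300*, 10.3 and 11.4 for *Klf4*, 3.60 and 4.17 for *Klf5* and 10.5 and 9.24 for *Tfap2c*. The stress genes *Atf4*, *Mdm2* and *Cdkn1a* belonged to the class, and *Atf4*, the effector of the integrated stress response, stood at 72.2 and 60.2, then 58.9 and 58.7, then 212.1 and 190.3 FPKM. Under mitochondrial scaling *Tnpo3*, *Ppm1g*, *Eif3c*, *Jmy*, *Ep300*, *Klf4*, *Klf5*, *Tfap2c*, *Cdkn1a*, *Mdm2* and *Atf4* were called lower than early DMSO, as were *Pou5f1*, *Ncl*, *Nlrp5* and *Gdf9*, which are described further on.

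The other 385 genes at the early level had not fallen to the late DMSO level. Their median was 11.2 and 11.3 FPKM in early DMSO, 13.1 and 12.7 in late A-485 and 4.32 and 4.50 in late DMSO. *Pkd2l2*, a polycystin family channel gene, had 588.1 and 688.6 FPKM in early DMSO, 817.2 and 756.1 in late A-485 and 98.7 and 112.0 in late DMSO. *Lef1*, a transcription factor of Wnt signalling, had 104.4 and 101.2, then 143.5 and 156.2, then 23.2 and 21.03 FPKM. The treated values were the highest of the 3 groups in both genes, by a log2 change of 0.14 ± 0.08 and 0.40 ± 0.10 against early DMSO. Against late DMSO *Lef1* changed by 2.49 ± 0.13. *Sox2*, a pluripotency factor, had 8.20 and 7.60 FPKM in early DMSO, 11 and 12.2 in late A-485 and 1.96 and 2.83 in late DMSO. Its early A-485 level was 2.33 and 1.82 FPKM, so it was higher in late than in early treated embryos. *Cyb5a* also was, with 19.6 and 17.1 FPKM in early A-485 and 39.1 and 34.7 in late A-485. The cytochrome gene *Cyb5a*, the ubiquitin ligase gene *Rnf123* and the band 4.1 family gene *Epb41l4a* completed the named members, with log2 changes of 0.26 to 0.50 against early DMSO and 2.42 to 2.47 against late DMSO.

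**Figure D3:**
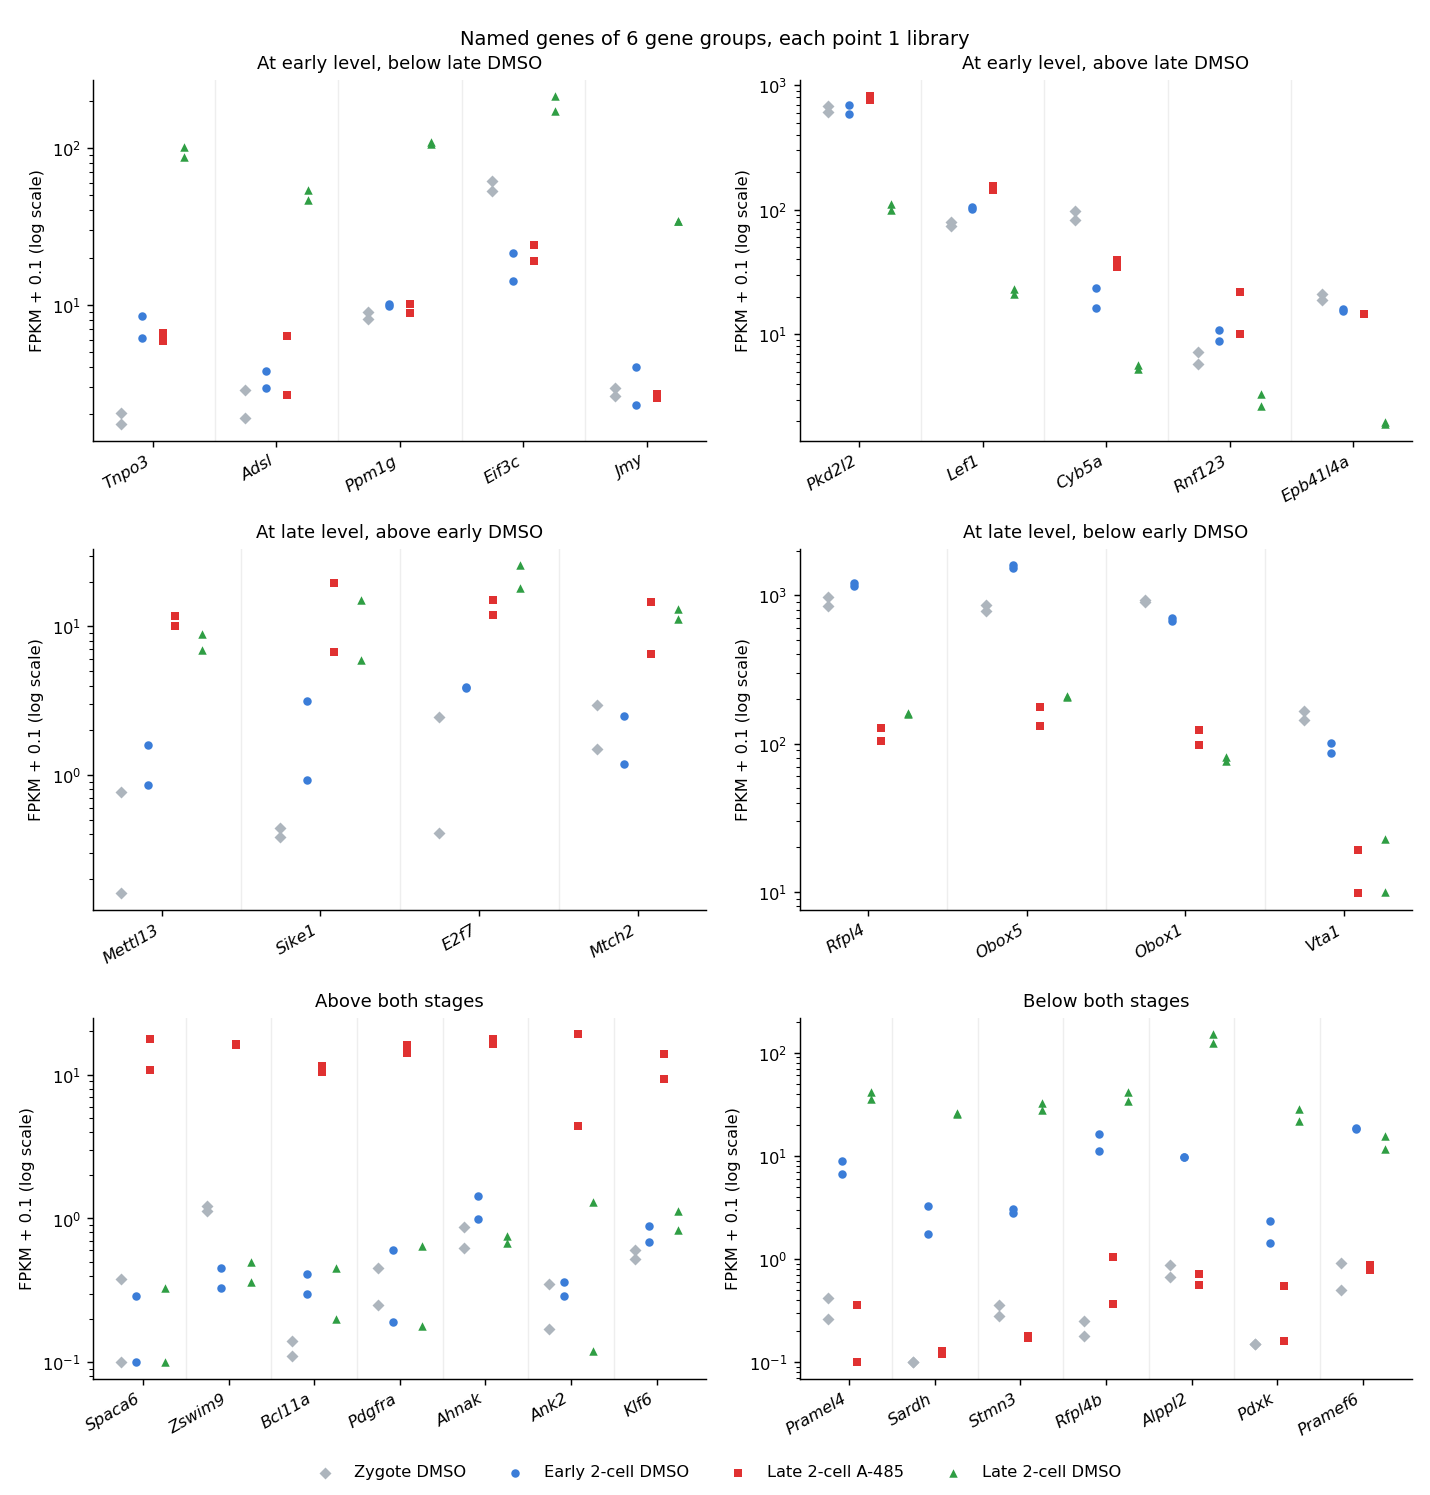
FPKM + 0.1 (log axis) of the named genes of the classes at the early level, at the late level, above both and below both, with each point 1 library of zygote DMSO, early DMSO, late A-485 or late DMSO embryos. *Tnpo3* and *Adsl* show late A-485 points at the height of the early DMSO points, whereas *Pramel4* and *Spaca6* show them away from both control stages.

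At the late level, 374 genes had fallen as in normal late embryos. Their median fell from 47.8 and 50.2 FPKM in early DMSO, and 52.6 and 50.6 in early A-485, to 20.1 and 21.01 in late A-485, beside 18.6 and 18.8 in late DMSO. Zygotes held 78.8 and 75.6 FPKM at the median. *Rfpl4*, an oocyte gene of the ret finger protein-like family, dropped from 1152 and 1210 FPKM in early DMSO to 104.1 and 127.3 in late A-485, with 159.2 and 161.6 in late DMSO. The change was -3.51 ± 0.09 on the log2 scale against early DMSO (adjusted p = 2.5e-10, edgeR) and -0.70 ± 0.13 against late DMSO. *Obox5* and *Obox1*, oocyte-specific homeobox genes, had 130.3 and 176.7, and 97.0 and 124.2 FPKM in late A-485, from 1595 and 1535, and 666.2 and 704.4 in early DMSO. *Btg4*, an adaptor of the deadenylase that removes maternal RNA, went from 2572 and 2526 FPKM to 1124 and 1181, with 906.0 and 805.2 in late DMSO. *Vta1*, a gene of endosomal sorting, went from 86.9 and 100.3 to 9.69 and 19.1, with 22.7 and 9.82 in late DMSO. In each of these genes the treated libraries lay clear of early DMSO.

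Another 118 genes had risen to the late level. *Mettl13*, a methyltransferase of elongation factor eEF1A, had 1.49 and 0.75 FPKM in early DMSO, 11.7 and 9.94 in late A-485 and 8.79 and 6.85 in late DMSO, a log2 change of 3.59 ± 0.31 against early DMSO (adjusted p = 3.2e-06, edgeR). *Mtch2*, an insertase of the outer mitochondrial membrane, had 1.09 and 2.38, then 14.6 and 6.42, then 13.1 and 11.1 FPKM. *Sike1*, a suppressor of the kinase IKK epsilon, had 0.82 and 3.06, then 19.6 and 6.67, then 5.87 and 15.0 FPKM, with a wide spread within the late groups. *E2f7*, a repressor of E2F targets, had 3.80 and 3.73, then 11.8 and 14.9, then 25.7 and 17.9 FPKM. For *E2f7* the FPKM ratio and the count-based change (2.86 ± 0.26 on the log2 scale) differ. FPKM also depends on isoform lengths estimated in each library, and the count-based change on the scaling between libraries.

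Genes that normally rise or fall by the late 2-cell stage were taken as 2 further lists. They were built from the zygote DMSO libraries and the late DMSO libraries of the TSA experiment, with at least a 4-fold change and an adjusted p under 0.01, and share no library with the main comparison. Of the 3923 rising genes, 3683 were tested against early DMSO, of which 454 were higher (12.3%), 569 lower (15.4%) and 494 within 2-fold (13.4%), with a median log2 change of 0.09. Over all genes tested these shares were 9.26%, 8.51% and 22.3% and the median was 0.19, so a smaller share of the rising genes than of all genes matched the early stage. In the same list late DMSO against early DMSO had a median of 1.61 with 1851 genes higher, and late A-485 against late DMSO had a median of -1.69 with 1866 genes lower. The median near 0 against early DMSO is taken over genes that moved both ways, with 1367 undecided, and does not place rising genes at the early level. Under the mitochondrial scaling 161 rising genes were called higher. Of the 2146 falling genes, 2115 were tested, of which 69 were higher, 367 lower (17.4%) and 500 within 2-fold (23.6%), with a median log2 change of -0.47. This share within 2-fold and the 22.3% of all genes have unlike bases. Of the falling genes tested 1814 reached 1 FPKM, and of all 22807 genes 15715, and only these could be matched. Their median was 0.55 against late DMSO, where 293 genes were higher and 43 lower, and it was -1.13 between late and early DMSO. With lists cut at 2-fold, 704 falling genes were called lower.

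**Figure D4:**
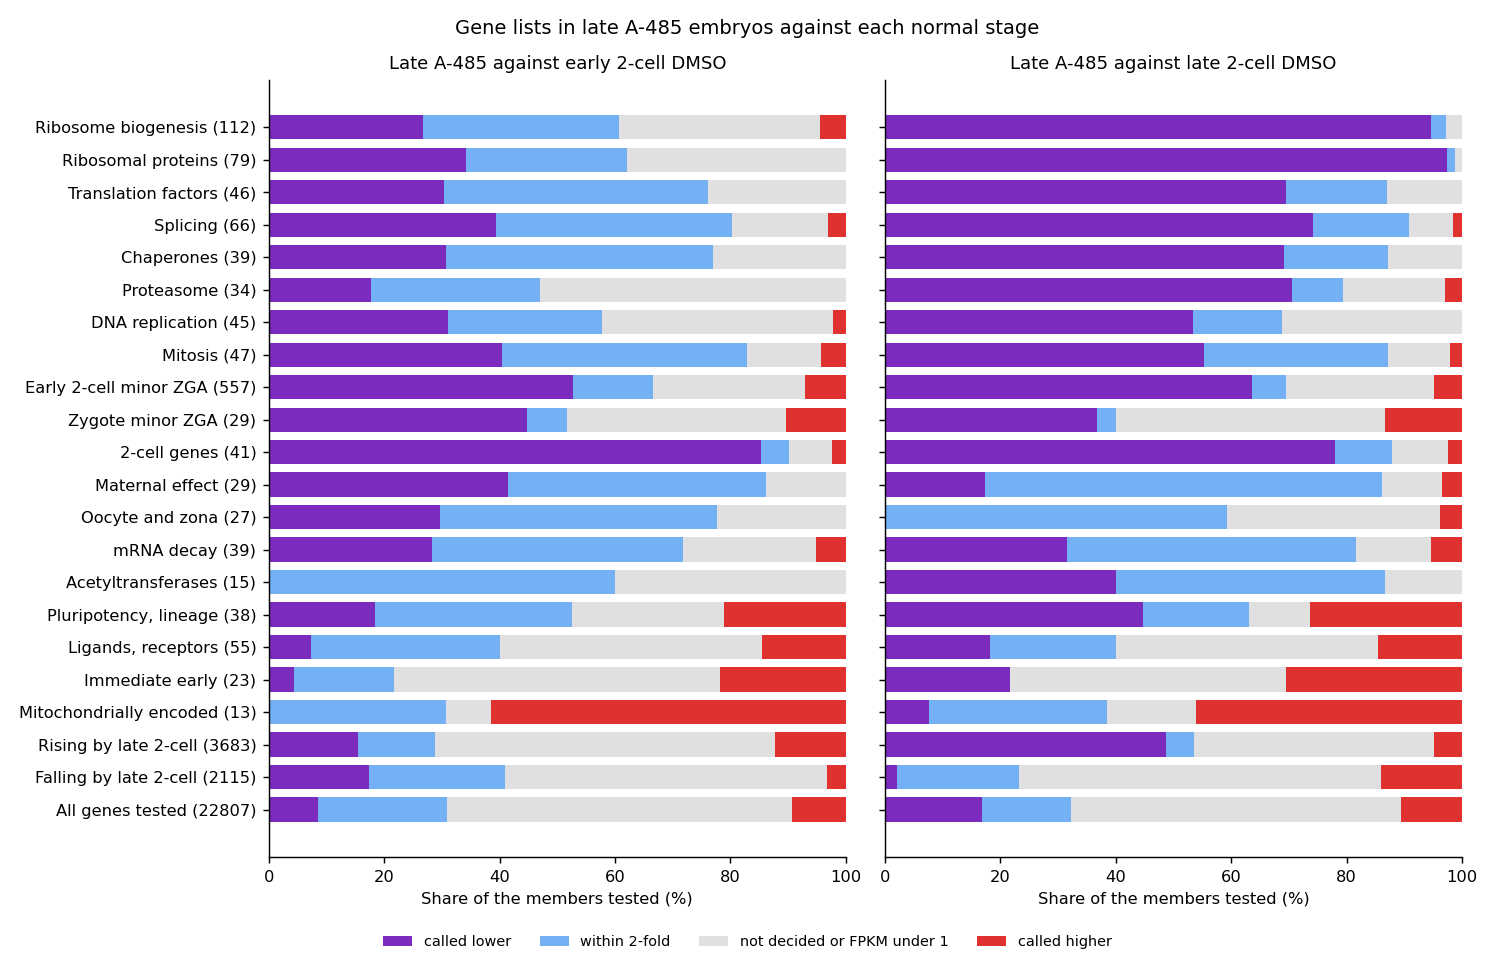
Share of each gene list (percent of members tested, x axis) called lower, within 2-fold, not decided or called higher in late A-485 embryos against early DMSO (left) and late DMSO (right), with the number tested against early DMSO in brackets and all genes tested in the last row. Against early DMSO, the 2-cell genes have the greatest share called lower of the lists drawn, 35 of 41, and the mitochondrially encoded genes the greatest share called higher, 8 of 13.

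Below both stages stood 1106 genes. Their median was 21.2 and 21.4 FPKM in early DMSO, 36.8 and 38.4 in late DMSO and only 6.16 and 6.03 in late A-485. The medians were 8.88 and 9.11 in zygotes and 4.24 and 4.41 in early A-485. Zygote levels were spread more widely over genes. Their quartiles were 0.515 and 46.3 FPKM in zygote replicate 1, against 2.13 and 14.5 in late A-485 replicate 1. In early A-485 embryos 622 of the 1106 (56.2%) were under 0.5 times their early DMSO level, although early DMSO also served to define the class. The rising list held 516 of the 1106 (46.6%), against 20.0% of all expressed genes. Pseudogenes made up 136, and in 54 (4.88%) the sharing of reads between near copies was uncertain.

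The 7 members ranked first by their changes came on between zygote and early 2-cell in controls and were near 0 in treated embryos. They are not typical of the class, of which 340 of 1106 genes were under 1 FPKM in zygotes. *Pramel4*, a gene of the Prame family, had 8.78 and 6.61 FPKM in early DMSO, 0 and 0.26 in late A-485 and 35.2 and 41.2 in late DMSO. Zygotes had 0.16 and 0.32 FPKM and early A-485 0.15 and 0.19, so the treated late embryo was at the zygote level (log2 change -5.96 ± 0.75 against early DMSO, adjusted p = 1.8e-05, edgeR). *Sardh*, a mitochondrial sarcosine dehydrogenase, had 3.13 and 1.65 FPKM in early DMSO, 0.03 and 0.02 in late A-485, which is 1 read in each library, and 25.3 and 26.1 in late DMSO. *Stmn3*, a microtubule regulator, likewise had 1 read in each late A-485 library against 2.92 and 2.71 FPKM in early DMSO and 27.9 and 32.3 in late DMSO. No fold is given for *Sardh* and *Stmn3* at so few reads, and their adjusted p against early DMSO were 9.1e-04 and 0.0015 (edgeR).

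*Alppl2*, an alkaline phosphatase gene, had 9.57 and 9.62 FPKM in early DMSO, 0.62 and 0.46 in late A-485 and 124.3 and 150.6 in late DMSO, a log2 change of -4.54 ± 0.36 and -8.40 ± 0.24. *Pdxk*, the kinase that activates vitamin B6, had 2.24 and 1.33, then 0.06 and 0.45, then 21.6 and 28.0 FPKM. *Rfpl4b* had 16 and 10.9, then 0.27 and 0.95, then 34.2 and 41.4 FPKM, and *Pramef6* 18.01 and 18.6, then 0.69 and 0.78, then 11.6 and 15.6. All of these genes were under 1.3 FPKM in each zygote and early A-485 library.

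Among 41 tested members of a list of 2-cell genes, 35 were lower than in early DMSO, 1 higher and 2 within 2-fold, and 30 were below both stages. The median log2 change was -3.04. *Zscan4c*, of the *Zscan4* cluster that marks the 2-cell embryo, had 82.8 and 83.7 FPKM in early DMSO, 5.06 and 5.75 in late A-485 and 15.0 and 15.2 in late DMSO, with 0.91 and 0.32 in early A-485. The treated late embryos lay above their own earlier stage and below both control stages, and the changes were -4.09 ± 0.13 against early DMSO and -1.68 ± 0.23 against late DMSO. *Zscan4d* had 76.1 and 63.7, then 5.49 and 2.07, then 15.5 and 17.8 FPKM, and its near-identical cluster copies make the assignment of reads among them approximate. *Zfp352* had 121.6 and 112.4, then 19.3 and 13.5, then 60.2 and 60.0 FPKM, with 1.28 and 1.52 in early A-485. *Usp17lc*, a deubiquitinase gene, had 94.6 and 71.7, then 10.7 and 13.7, then 72.7 and 68.3 FPKM. *Obox3*, a homeobox gene of the same stage, had 58.5 and 47.4 FPKM in early DMSO, 5.36 and 3.51 in late A-485 and 132.7 and 110.1 in late DMSO. *Duxf3*, the *Dux* gene that activates many of them, was undecided, with 5.16 and 4.92, then 6.04 and 9.56, then 3.22 and 4.29 FPKM. *Usp26* was the exception that rose, from 3.14 and 3.30 to 13.8 and 10.1 FPKM.

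The study's list of 558 early 2-cell minor ZGA genes, which was defined as RNAs lost when transcription is blocked, gave the same direction. Of 557 tested, 294 were lower than in early DMSO (52.8%), 39 higher and 77 within 2-fold, with 245 below both stages. The median was -1.69 on the log2 scale against early DMSO and -2.28 against late DMSO. Because the study chose this list on early 2-cell DMSO embryos whose libraries may be those used here, it is not independent evidence of the direction. Of 29 tested genes on its zygote minor ZGA list, 13 were lower, 3 higher and 2 within 2-fold. *Rplp1*, a ribosomal stalk protein and the most abundant of the early list, had 120.5 and 108.0 FPKM in early DMSO, 67.4 and 51.4 in late A-485 and 712.4 and 621.7 in late DMSO.

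Growth genes of the major wave were mostly lower than in late DMSO, and against early DMSO some matched, some were lower and many were undecided. Ribosome biogenesis had 112 tested members, of which 106 were lower than late DMSO, 38 were within 2-fold of early DMSO, 30 were lower than early DMSO, 5 were higher and 37 were undecided. Under the mitochondrial scaling 80 were lower than early DMSO and 10 within 2-fold. *Nhp2*, a snoRNP protein, had 27.4 and 28.5 FPKM in early DMSO, 6.02 and 4.77 in late A-485 and 136.2 and 126.4 in late DMSO. *Npm1*, a nucleolar chaperone, had 500.6 and 482.9, then 155.8 and 162.6, then 495.2 and 433.8 FPKM, so its treated level was below both. *Ncl*, a nucleolar protein, stayed at the early level with 120.0 and 121.8, then 80.2 and 66.5, then 240.0 and 224.2 FPKM. *Rpf2* and *Nop10* were among the 5 higher members, and *Nop10*, of the box H/ACA particle, had 4.23 and 5.24, then 13.4 and 9.11, then 11.3 and 13.7 FPKM. Both calls passed narrowly (adjusted p = 0.021 and 0.042, edgeR), and the mitochondrial scaling left 1 higher member.

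Of 79 ribosomal protein genes, 77 were lower than late DMSO, 27 were lower than early DMSO, 22 were within 2-fold of it, 30 were undecided and 0 were higher, whereas the mitochondrial scaling gave 66 lower and 4 within 2-fold. *Rps15* had 12.4 and 18.7 FPKM in early DMSO, 3.49 and 5.33 in late A-485 and 127.9 and 131.0 in late DMSO. *Rplp2*, the most abundant, had 376.4 and 321.0, then 244.3 and 230.2, then 713.4 and 564.9 FPKM and was within 2-fold of early DMSO. Among 46 translation factor genes, 14 were lower than early DMSO, 21 within 2-fold and 32 lower than late DMSO, against 34 lower and 4 within 2-fold of early DMSO under that scaling. *Eif4a1*, the helicase of cap-dependent initiation, had 307.8 and 285.1, then 81.5 and 79.7, then 253.8 and 227.4 FPKM. *Eef2*, the translocation factor, had 50.4 and 50.0, then 14.5 and 12.9, then 109.6 and 120.1 FPKM. *Eif5*, the most abundant factor, moved the other way with 168.8 and 184.9, then 254.1 and 269.9, then 410.3 and 414.9 FPKM, and was within 2-fold of both stages.

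Of 66 splicing genes, 26 were lower than early DMSO (39.4%, against 8.51% of all genes tested), 27 within 2-fold and 2 higher. In this list and in those for chaperones, the proteasome, DNA replication and mitosis, the mitochondrial scaling raised the number lower than early DMSO to 57, 31, 25, 31 and 36. *Snrpe*, an Sm core protein, had 255.6 and 234.0, then 26.6 and 38.3, then 135.1 and 148.8 FPKM. *Cdc5l*, of the spliceosome, was higher and between the stages with 9.09 and 8.18, then 24.02 and 34.8, then 70.4 and 58.8 FPKM. Chaperones had 12 lower (30.8%) and 18 within 2-fold of 39, and the proteasome 6 (17.65%) and 10 of 34. *Hsp90ab1*, a cytosolic HSP90, had 176.2 and 156.4, then 38.4 and 28.6, then 245.6 and 245.8 FPKM. DNA replication genes had 14 lower (31.1%) and 12 within 2-fold of 45, and mitosis genes 19 (40.4%) and 20 of 47. *Pttg1*, the securin that holds sister chromatids, had 523.5 and 514.3, then 59.3 and 65.5, then 102.3 and 127.9 FPKM. *Ube2s*, an enzyme that extends ubiquitin chains for the anaphase-promoting complex, had 337.5 and 261.7, then 555.3 and 480.4, then 215.7 and 299.8 FPKM and was within 2-fold of both.

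Among the maternal genes that fell in a class, those at the late level were the most numerous. They were 9 of the maternal effect genes and 5 of the oocyte and zona pellucida genes, beside 3 and 1 at the early level, 3 and 0 below both and 0 above both. Over all genes tested 492 were at the late level, 1381 at the early level, 1106 below both and 1441 above both. Many of the maternal genes fell in no class. Of 29 maternal effect genes, 12 were lower than early DMSO and 13 within 2-fold, and 20 were within 2-fold of late DMSO, while under the mitochondrial scaling 27 were lower than early DMSO. *Dppa3*, which protects the maternal genome from demethylation, had 1730 and 1531 FPKM in early DMSO, 220.4 and 265.8 in late A-485 and 1205 and 986.9 in late DMSO. Its early A-485 level was 1792 and 1806 FPKM, well above that of late A-485. The log2 change of late A-485 was -2.92 ± 0.10 against early DMSO and -2.41 ± 0.14 against late DMSO. *Zbed3*, a gene of the subcortical complex, had 8854 and 9134, then 3272 and 3349, then 1781 and 1890 FPKM. *Nlrp5*, of the same complex, was within 2-fold of both stages with 61.5 and 59.0, then 44.9 and 40.5, then 26.3 and 32.2 FPKM. Of 27 oocyte and zona pellucida genes, 8 were lower than early DMSO, 13 within 2-fold and 0 lower than late DMSO, and the mitochondrial scaling gave 20 lower than early DMSO and 5 lower than late DMSO. *Gdf9*, an oocyte growth factor, was within 2-fold of both with 92.5 and 83.8, then 90.7 and 97.7, then 59.5 and 67.1 FPKM. *Zfp57*, which keeps imprints, dropped with the late stage, from 650.8 and 645.0 to 186.4 and 191.5 FPKM beside 175.5 and 203.9 in late DMSO.

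Above both stages stood 1441 genes, the largest of the classes that differ from both. Their median was 0.19 and 0.23 FPKM in early DMSO, 2.90 and 2.66 in late A-485 and 0.14 in each late DMSO library. In 1085 of them early, late and zygote DMSO embryos were all under 1 FPKM. The early A-485 level was more than 2 times early DMSO in 581 of the genes (40.3%) and under 0.5 times in 197 (13.7%). Nothing is read from these ratios, since early DMSO also defined the class and most members were close to 0 there. Long noncoding genes made up 468 (32.5%) and protein coding genes 862 (59.8%), against 12.2% and 77.4% of all expressed genes. A single exon was annotated for 367 (25.5%), against 14.2%.

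*Zswim9*, a SWIM-type zinc finger gene, had 0.35 and 0.23 FPKM in early DMSO, 16.1 and 15.9 in late A-485 and 0.40 and 0.26 in late DMSO. The treated libraries were close to each other and lay apart from both references, with log2 changes of 5.82 ± 0.24 and 5.52 ± 0.28 (adjusted p = 4.5e-09 and 3.5e-08, edgeR), and early A-485 stood at 3.68 and 3.44 FPKM. *Spaca6*, a sperm membrane protein of gamete fusion, had 0 and 0.19, then 10.7 and 17.5, then 0.23 and 0 FPKM, and 5.92 ± 0.75 on the log2 scale against early DMSO. No fold is given against late DMSO, where it had 3 and 0 reads. *Bcl11a*, a transcriptional repressor of blood development, had 0.20 and 0.31, then 11.3 and 10.3, then 0.10 and 0.35 FPKM, with 0.93 and 0.84 in early A-485. *Ahnak*, a giant scaffold protein, had 1.33 and 0.89, then 17.5 and 16.2, then 0.66 and 0.57 FPKM, with 3.66 and 4.25 in early A-485. *Ank2*, an ankyrin adaptor, differed between replicates, with 19.0 and 4.32 FPKM in late A-485 against 0.26 and 0.19 in early DMSO.

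Regulators of cell lineages and growth signals were found among the genes above both. *Pdgfra*, a growth factor receptor of the primitive endoderm, had 0.09 and 0.50 FPKM in early DMSO, 13.9 and 15.9 in late A-485 and 0.08 and 0.54 in late DMSO, a log2 change of 4.89 ± 0.44 and 6.27 ± 0.32. Its early A-485 level was 1.12 and 1.22 FPKM. *Gata6* and *Sox17*, transcription factors of the same lineage, had 5.32 and 9.55, and 9.58 and 12.1 FPKM in late A-485, against 0.97 and 1.17, and 1.41 and 1.82 in early DMSO. *Gata3*, a trophectoderm factor, had 2.45 and 1.98, then 9.06 and 15.4, then 1.22 and 0.48 FPKM. *Cdx2* and *Nanog* were under 1.2 FPKM in each library. *Pou5f1* was within 2-fold of both stages with 233.7 and 244.6, then 185.3 and 199.8, then 112.1 and 129.2 FPKM, whereas *Nr5a2* was below both with 38.9 and 29.4, then 18.6 and 10.8, then 73.6 and 78.6. *Klf17* was below both with 144.7 and 167.1, then 87.0 and 75.6, then 155.3 and 161.4 FPKM, a log2 change of -1.09 ± 0.10 that was under 2-fold with total-count scaling or without early DMSO replicate 2. In all, 38 pluripotency and lineage genes had 8 higher than early DMSO (21.1%), 7 lower (18.4%) and 13 within 2-fold. Over all genes tested 9.26% were higher and 8.51% lower. Against late DMSO 10 were higher (26.3%, against 10.5% of all genes tested) and 17 lower (44.7%, against 16.8%). The mitochondrial scaling gave 5 higher and 20 lower than early DMSO.

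Immediate early genes, which respond to stimuli without new protein synthesis, had 5 of 23 higher than early DMSO (21.7%) and 1 lower (4.35%). These compare with 9.26% and 8.51% of all genes tested. The list median was -0.22 on the log2 scale against early DMSO, and 7 genes were higher and 5 lower than late DMSO. Under the mitochondrial scaling 4 were higher and 12 lower than early DMSO. *Klf6* had 0.79 and 0.59, then 13.9 and 9.25, then 0.73 and 1.03 FPKM. *Myc* had 1.69 and 2.40, then 15.3 and 10.9, then 3.51 and 2.71 FPKM, and *Jun* 0.86 and 0.58, then 5.38 and 3.89, then 0.89 and 0.35. *Fosb* was the lower member with 8.56 and 7.14, then 3.24 and 3.28, then 5.20 and 4.73 FPKM. Among 55 signalling ligands and receptors, 8 were higher (14.55%), 4 lower (7.27%) and 18 within 2-fold, against 6 higher and 20 lower under the mitochondrial scaling. Over all genes tested 9.26% were higher and 8.51% lower. *Dll1*, a Notch ligand, had 2.13 and 3.42, then 18.5 and 17.02, then 1.11 and 1.63 FPKM. *Bmp4* had 0.52 and 0.51, then 4.91 and 4.98, then 0.69 and 0.07 FPKM, and *Wnt5a* 0.14 and 1.51, then 3.41 and 4.36, then 0.06 and 0. *Fgf4* lay between the stages with 0.33 and 0.08, then 3.50 and 4.13, then 18.4 and 14.9 FPKM.

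Stress and death lists were divided, and under the mitochondrial scaling each had more genes lower than higher. Of 25 integrated stress response genes, 4 were higher, 5 lower and 7 within 2-fold of early DMSO. *Ppp1r15a*, which restarts translation after stress, had 95.3 and 75.1, then 28.9 and 23.8, then 235.2 and 259.1 FPKM. *Nupr1*, a stress-induced chromatin protein, rose from 1.77 and 4.51 to 16.9 and 10.7, with 4.94 and 3.85 in late DMSO. *Trib3*, an inhibitor of ATF4, had 4.91 and 3.09, then 4.92 and 0.52, then 22.5 and 25.5 FPKM, and its call against early DMSO (adjusted p = 0.017, edgeR) was lost without early DMSO replicate 1 (adjusted p = 0.106) or without late A-485 replicate 2 (adjusted p = 0.0518). Of 27 p53 response genes, 4 were higher, 4 lower and 12 within 2-fold, and *Sesn2* was lower with 18.2 and 16.3, then 5.72 and 5.73, then 85.3 and 119.7 FPKM. Of 32 apoptosis genes, 5 were higher, 4 lower and 8 within 2-fold, with *Casp6*, an effector caspase, at 1.66 and 1.53, then 5.43 and 6.18, then 2.04 and 1.37 FPKM. *Bcl2l10*, an oocyte survival gene, had 799.2 and 880.3, then 187.0 and 197.4, then 131.9 and 142.5 FPKM.

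Mitochondrially encoded genes were mostly higher in the treated embryos than in early DMSO. Of 13 mitochondrial genes, 8 were higher than early DMSO, 0 lower and 4 within 2-fold, and under the scaling on these genes that direction is removed by construction. *mt-Nd5*, a subunit of complex I, had 1644 and 1436 FPKM in early DMSO, 4044 and 3968 in late A-485 and 1744 and 1525 in late DMSO. Of 66 nuclear respiratory chain genes, 3 were higher (4.5%), 8 lower (12.1%) and 10 within 2-fold, against 9.26% and 8.51% of all genes tested higher and lower. *Atp5a1*, of the ATP synthase, had 40.3 and 35.5, then 14.6 and 12.8, then 44.4 and 48.5 FPKM. Of 39 replication histone genes, 5 were higher (12.8%, near the 9.26% of all genes tested), 0 lower and 18 within 2-fold, whereas under the mitochondrial scaling 0 were higher and 4 lower. *Hist2h2aa1* had 2103 and 2225, then 5773 and 4601, then 1263 and 1384 FPKM. Of 15 acetyltransferase genes, 0 were called against early DMSO and 9 were within 2-fold, while 6 were lower than late DMSO. The mitochondrial scaling turned this into 10 acetyltransferase genes lower than early DMSO and 2 within 2-fold. Of 18 deacetylase genes, 4 were lower than early DMSO (22.2%, against 8.51% of all genes tested) and 0 higher, with 10 lower under that scaling. *Hdac1* was lower with 33.3 and 28.1, then 15.7 and 21.1, then 89.1 and 98.8 FPKM, and *Sirt1* with 34.1 and 33.6, then 11.1 and 12.9, then 162.5 and 145.3.

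Targets of Polycomb, whose complexes silence developmental genes, were a list of 1917 genes that the study had chosen for carrying H3K27me3 in the inner cell mass and for lacking expression before implantation. Low values in every control group, and the scarcity of lower calls, were therefore largely fixed by the choice of the list, and the counts are given as a description. In late A-485 embryos 71 and 69 of the 1917 reached 1 FPKM, against 4 and 1 in early DMSO, 2 and 2 in late DMSO and 3 and 3 in zygotes. Among all genes, too, more reached 1 FPKM in late A-485, 14944 and 14921, than in early DMSO, 12233 and 12457. Of 350 with enough reads to test, 47 were called higher than early DMSO (13.4%, against 9.26% of all genes tested). Lower genes numbered 0 (against 8.51%), and 45 were above both. Members could pass the read filter through the treated group alone, so the count of those tested supports nothing by itself. Without late A-485 replicate 2 the count was 29, and without replicate 1 it was 32. Against late DMSO 51 were higher and 1 lower, but with the late DMSO libraries of the TSA experiment as reference 53 were higher and 28 lower. *Hand1*, a trophoblast and heart factor, had 0.12 and 0.57, then 5.29 and 1.98, then 0 and 0.03 FPKM.

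Markers of other cells that could be present were summed in each library. The summed level of the cumulus cell list was 13.8 and 9.67 FPKM in late A-485, against 3.07 and 4.20 in early DMSO and 1.90 and 2.05 in late DMSO. Of 9 tested, *Fst* and *Foxl2* were higher and 0 lower, *Fst* having 0 and 0.30, then 9.71 and 5.45, then 0 and 0.06 FPKM, while *Amh* was at 0 in all of these libraries and *Fshr* at 0 in late A-485. The fibroblast list summed to 16.8 and 19.9 FPKM, against 5.54 and 6.78 and then 3.50 and 4.48, with *Vim* and *Postn* higher and *Col1a2*, *Lum* and *Dcn* at 0 in late A-485. Erythroid markers summed to 0.74 and 2.72 against 4.99 and 3.67 in early DMSO, and sperm markers to 3.92 and 2.55 against 5.59 and 7.08. All 8 embryo markers were at 1 FPKM or more in each library, with a sum of 707.2 and 782.2 in late A-485 against 2356 and 2179 in early DMSO. That sum is dominated by *Dppa3*, which went from 1730 and 1531 FPKM in early DMSO to 220.4 and 265.8 in late A-485. Of the 8, 5 were within 2-fold of early DMSO and 1, *Dppa3*, was lower, and 6 were within 2-fold of late DMSO. The part of these markers in the genes above both was not tested.

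The metabolic lists had 0 to 1 genes higher than early DMSO and 3 to 5 lower. Lower shares were 13.6% for glycolysis, 12.5% for cholesterol synthesis and 15.2% for lysosome and autophagy, against 8.51% of all genes tested. With that low yardstick for expressed genes, nothing is read from these few genes. Of 22 glycolysis genes, 3 were lower and 10 within 2-fold, and *Ldhb*, a lactate dehydrogenase subunit, had 523.6 and 440.4, then 101.5 and 103.8, then 106.1 and 112.7 FPKM. Of 24 cholesterol synthesis genes, 1 was higher, 3 lower and 8 within 2-fold. Of 33 lysosome and autophagy genes, 5 were lower and 13 within 2-fold, and 18 were lower than late DMSO. *Ctsl*, a lysosomal protease, had 62.2 and 64.2, then 37.5 and 34.7, then 214.8 and 247.6 FPKM. Of 39 mRNA decay genes, 2 were higher, 11 lower and 17 within 2-fold, *Cnot3* of the deadenylase complex being lower with 114.8 and 121.0, then 33.0 in each treated library, then 66.5 and 62.3 FPKM. The lower members were 28.2% of the mRNA decay list, against 8.51% of all genes tested. DNA methylation genes had 2 higher, 5 lower (26.3%) and 9 within 2-fold of 19. Adhesion and compaction genes had 2, 5 (15.2%) and 14 of 33, and innate immunity genes 2, 0 and 2 of 24. Under the mitochondrial scaling the lower genes numbered 13 for glycolysis, 10 for cholesterol synthesis, 19 for lysosome and autophagy, 30 for mRNA decay, 10 for DNA methylation, 20 for adhesion and 6 for innate immunity.

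Between the stages lay 85 genes, 70 of them on the way up and 15 on the way down. *Tor1b*, an ATPase of the endoplasmic reticulum, had 0.09 and 0.32 FPKM in early DMSO, 2.79 and 1.32 in late A-485 and 34.0 and 39.8 in late DMSO. *Dohh*, which completes the hypusine of eIF5A, had 1.3 and 0.84, then 5.08 and 3.64, then 13.8 and 17.04 FPKM, but its change of 2.31 ± 0.79 on the log2 scale passed narrowly (adjusted p = 0.048, edgeR) and was lost without early DMSO replicate 2 or either late A-485 replicate (adjusted p = 0.108 to 0.185). *Rpp40*, of RNase P, had 0.51 in both, then 1.13 and 0.89, then 12.8 and 10.97 FPKM, and its call was lost when any of the 4 libraries was left out (adjusted p = 0.0649 to 0.119). *Pla2g4c*, a phospholipase gene, was on the way down with 744.8 and 807.0, then 326.2 and 346.0, then 107.7 and 111.7 FPKM. *Psenen*, of gamma-secretase, had 168.0 and 158.1, then 55.1 and 69.7, then 19.2 and 17.8 FPKM, and *Psmb3*, of the proteasome, 29.8 and 33.9, then 12.4 and 8.56, then 4.22 and 2.39.

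A readout that the classes did not use was the deposited ATAC-seq peaks of early 2-cell embryos, a map of open chromatin with 27693 peaks in DMSO and 13712 in A-485, each list pooled over the replicates. These embryos are an earlier stage than the treated RNA libraries. A peak within 1 kb of any annotated transcript start of the gene was found in DMSO for 43.0% of all expressed genes (95% Wilson interval 42.2 to 43.7). In A-485 it was 52.8% (52.1 to 53.6), so the shorter list held more promoters. Genes with more annotated starts have more chances of a peak. The genes at the early level and lower than late DMSO had a DMSO peak in 80.2% (77.6 to 82.6) and an A-485 peak in 81.0% (78.5 to 83.3), above the share of all expressed genes in each. Those at the early level and higher than late DMSO had 26.5% (22.3 to 31.1) and 50.4% (45.4 to 55.4). The genes above both had a DMSO peak in 24.3% (22.1 to 26.6) and an A-485 peak in 49.2% (46.6 to 51.8). The genes below both had a DMSO peak in 60.0% (57.1 to 62.9) and an A-485 peak in 53.9% (50.9 to 56.8), a smaller share in A-485. With peaks counted within 2.5 kb these shares were 66.8% and 55.0%, and the early-level genes lower than late DMSO also had a smaller share in A-485, 81.5% after 86.0%. For the genes below both, among peaks in the upper 50% by fold enrichment the shares were 23.4% and 30.8%, the opposite order. The intervals cover counting error only, and the peak lists have no replicate spread. The classes were not matched for level or annotation. The early-level genes lower than late DMSO and the genes above both had medians of 10.9 and 0.23 FPKM in early DMSO. A single exon was annotated for 2.41% and 25.5% of them.

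**Figure D5:**
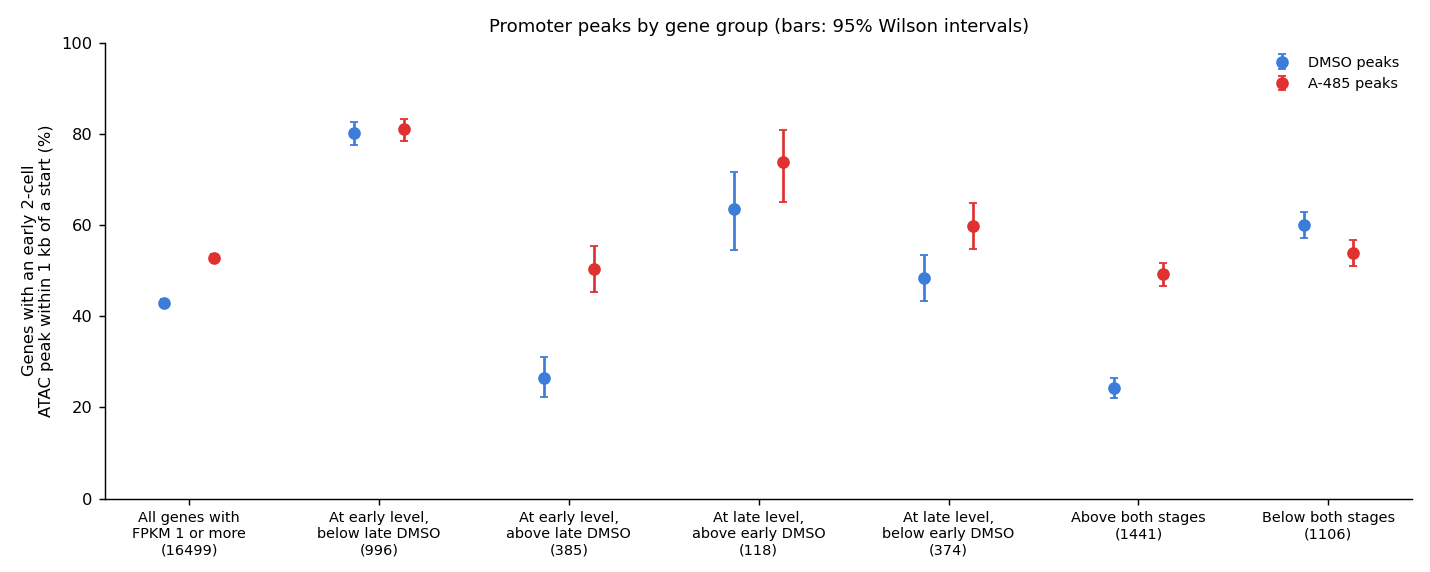
Percent of the genes of each class with an early 2-cell ATAC-seq peak within 1 kb of any annotated transcript start (y axis), in DMSO and A-485 embryos. Points are the share, bars 95% Wilson intervals, and gene numbers are in brackets. The genes at the early level and lower than late DMSO reach 80.2% and 81.0%, and the genes above both have 24.3% in DMSO and 49.2% in A-485.

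Promoter sequences of the classes differed in their content of CpG dinucleotides. In 300 bases from 250 before to 50 after the gene start, the median number of CpG was 22 in protein coding genes at the early level and lower than late DMSO, 18 in those below both and 14 in those above both, against 18 over all expressed genes. Fewer than 10 CpG were held by 12.4%, 28.0% and 34.7% of the same classes, against 26.1%. The 2 genes named first by rule in each of these classes are printed below from the GRCm38.p6 genome at GENCODE M21 gene starts, 5′ to 3′ on the strand of the gene, with each CG in capitals. They are shown as examples of low and high CpG content beside the levels given above, and their counts need not be typical of their class. *Tnpo3* and *Adsl* are at the early level and had peaks in both treatments.
Tnpo3, chr6:29609838-29610137, minus strand: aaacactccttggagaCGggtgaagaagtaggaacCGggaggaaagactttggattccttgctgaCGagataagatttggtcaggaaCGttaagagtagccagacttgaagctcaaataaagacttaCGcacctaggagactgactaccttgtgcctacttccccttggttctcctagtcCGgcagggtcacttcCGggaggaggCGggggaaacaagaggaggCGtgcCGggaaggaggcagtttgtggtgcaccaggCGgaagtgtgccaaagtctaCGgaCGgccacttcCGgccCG
Adsl, chr15:80948240-80948539, plus strand: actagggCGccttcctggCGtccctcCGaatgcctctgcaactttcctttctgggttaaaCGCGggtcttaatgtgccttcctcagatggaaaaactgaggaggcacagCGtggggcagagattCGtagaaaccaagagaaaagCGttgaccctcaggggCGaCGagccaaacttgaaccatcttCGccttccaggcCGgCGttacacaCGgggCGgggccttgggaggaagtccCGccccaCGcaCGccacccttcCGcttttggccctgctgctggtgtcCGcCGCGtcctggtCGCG
*Spaca6* and *Zswim9* are above both and had peaks in both treatments, with 23 and 29 CpG, more than the median of their class.
Spaca6, chr17:17826908-17827207, plus strand: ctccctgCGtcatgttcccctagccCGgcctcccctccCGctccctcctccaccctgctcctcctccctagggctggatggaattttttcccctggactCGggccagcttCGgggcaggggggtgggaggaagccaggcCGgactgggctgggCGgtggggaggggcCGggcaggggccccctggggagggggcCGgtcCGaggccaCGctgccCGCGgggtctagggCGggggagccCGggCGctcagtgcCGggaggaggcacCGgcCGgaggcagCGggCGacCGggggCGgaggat
Zswim9, chr7:13278672-13278971, minus strand: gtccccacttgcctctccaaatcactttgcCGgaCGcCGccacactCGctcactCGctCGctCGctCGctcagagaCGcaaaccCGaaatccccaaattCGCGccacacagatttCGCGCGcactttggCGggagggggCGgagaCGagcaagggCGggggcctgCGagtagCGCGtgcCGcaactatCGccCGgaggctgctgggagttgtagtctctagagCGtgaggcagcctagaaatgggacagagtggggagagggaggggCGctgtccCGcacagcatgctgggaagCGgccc
*Pramel4* and *Sardh* are below both, with 2 CpG each, fewer than the median of their class, and had a peak in DMSO but none in A-485.
Pramel4, chr4:144058876-144059175, plus strand: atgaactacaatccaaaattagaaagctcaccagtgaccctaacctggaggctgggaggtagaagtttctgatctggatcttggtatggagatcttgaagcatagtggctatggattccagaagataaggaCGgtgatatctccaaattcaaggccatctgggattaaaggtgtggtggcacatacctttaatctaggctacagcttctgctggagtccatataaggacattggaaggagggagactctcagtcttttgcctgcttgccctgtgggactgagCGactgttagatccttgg
Sardh, chr2:27248288-27248587, minus strand: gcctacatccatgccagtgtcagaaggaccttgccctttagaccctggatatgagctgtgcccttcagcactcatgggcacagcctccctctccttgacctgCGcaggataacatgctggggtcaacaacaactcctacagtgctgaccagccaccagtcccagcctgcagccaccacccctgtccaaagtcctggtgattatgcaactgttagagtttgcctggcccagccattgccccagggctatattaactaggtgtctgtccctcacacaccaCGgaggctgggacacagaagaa
*Tnpo3* held 15 CpG, under the median of its class, and *Adsl* 24. Read against the levels above, *Pramel4* and *Sardh* were the genes with the fewest CpG of the 6 and at most 0.26 FPKM in late A-485. *Spaca6* and *Zswim9* rose to over 10 FPKM, and each had a DMSO peak near a transcript start at a stage with under 0.4 FPKM. Counts of CG are a description of these windows and were not tied to any change.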

How the data were processed

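RNA was measured by total RNA-seq (SMART-Seq Stranded). Per the study's methods and the submitters' processing notes, reads were trimmed with Trimmomatic 0.39, mapped to GRCm38 with STAR 2.7.8a and quantified with RSEM 1.3.1. The deposited files hold expected counts and FPKM by the authors, and expected counts were rounded to whole numbers. The ATAC-seq peak lists hold peak positions and a fold enrichment, as deposited. The authors pooled replicates for these lists.

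Genes with at least 10 counts over the 4 libraries compared were tested with edgeR 4.0.16 (R 4.3.3, TMM scaling, quasi-likelihood F test, Benjamini-Hochberg adjustment) on the 4 libraries of each pair of groups. With 2 libraries against 2, an exact permutation test of a single gene cannot reach p under 0.05. In simulated counts for this comparison, 134 of 200 genes changed by 4-fold were called (67%) and 0 of 11973 unchanged genes, while 3 of 100 genes changed by 2-fold were placed within 2-fold. The simulation gave both groups the early DMSO means and changed only these 200 and 100 genes, equally up and down. It therefore says nothing about the scaling between libraries, on which the real counts depend. Total depth was 13206163 to 23067712 counts per library, which sets the precision of low genes. Differences are not given for genes with 3 reads or fewer in a group.

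Groups came from the sample titles. Named genes were protein coding with a mean of at least 10 FPKM and certain read sharing, ranked within each class by their fold changes (5 each at the early level and up to 7 in the other classes). Added to these were a list of genes always given, the 2 most changed members in each direction and the most abundant member of each list, and further list members chosen after their values were seen (*Obox3*, *Jun*, *Bmp4*, *Wnt5a*, *Fgf4*, *Hdac1*, *Hand1*, *Foxl2*). Members and lists were chosen with earlier results of these data known. Alternatives were DESeq2 1.42.0, other scalings and filters, all 16 libraries in 1 fit, other margins, a replicate block and leaving out each library.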

Additional observations from a re-analysis of the deposited data

How the results depend on the processing

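The alternatives for single genes covered the 67 genes ranked within the classes or always given. Further genes named only as list members were not put through them. None of the calls against early DMSO among these 67 reversed direction under the other tool, scalings, count filter, fit of all 16 libraries or replicate block. Omitting a library of either group reversed none of them either. Scaling on the mitochondrially encoded genes moved the counts most, to 1079 genes higher, 7339 lower and 1011 within 2-fold of early DMSO, with 382 genes at the early level, 840 at the late level, 743 above both, 4614 below both and 33 between, 161 rising genes higher and 1205 falling genes lower. A matching margin of 1.5-fold left 2149 genes within it, 467 at the early level and 137 at the late level. With lists cut at 2-fold, 704 falling genes were lower. Leaving out 1 library at a time gave 1678 to 1824 genes higher, 1662 to 2070 lower, 3954 to 4903 within 2-fold, 986 to 1332 at the early level, 352 to 480 at the late level, 1158 to 1334 above both, 940 to 1175 below both, 64 to 85 between, 378 to 415 rising genes higher and 271 to 427 falling genes lower. A group left with 1 library was assumed to vary like the other.

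Replicate numbers did not pair the samples: deviations of same-numbered libraries correlated at -0.0499, -0.049 and 0.0114 over 10635 genes. With the replicate block, 2088 genes were higher, 2025 lower and 5054 within 2-fold, 1388 at the early level, 475 at the late level, 1422 above both, 1156 below both and 96 between, with 465 rising and 383 falling genes called. DESeq2 gave 2095 higher, 1741 lower and 4552 within 2-fold. Late DMSO of the TSA experiment as the late reference gave 1567, 560, 1522, 1136 and 119 genes in the 5 classes. The alternatives for single genes leave out other margins, references and FPKM cutoffs. Over the same 67 genes, 706 of 737 values kept their side of the threshold, 15 passed it newly and 16 no longer passed. Depth limits calls in genes near 1 FPKM, where late A-485 had the fewest reads.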
